A study of Drosophila melanogaster with 6 samples.

Results

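Aminoacyl-tRNA synthetases are the enzymes that join each amino acid to its transfer RNA, the step that fixes which amino acid a codon is read as. Animal cells translate in the cytosol and in the mitochondria, and nuclear genes encode the synthetases of both compartments. In Drosophila the cytosolic genes carry names such as AlaRS, and the mitochondrial ones carry the ending -m. Every gene whose current symbol is an amino acid code, or a pair of joined codes, followed by RS, with or without -m, was taken, which gave 33 genes in the RefSeq gene table. A probe set that the array annotation pairs with a single gene was found for 30 of them, all 30 passed the filter on low intensities, and they were 30 of the 8764 genes tested. The symbol puts 16 of the 30 in the cytosolic form, of 18 named, and 14 in the mitochondrial form, of 15 named. AspRS, MetRS and AlaRS-m were not analysed here. The symbol is the only basis for the form: in human, for example, a single gene makes both the cytosolic and the mitochondrial enzyme for glycine, and likewise for lysine. The rule found no -m gene for glycine, histidine, lysine, threonine or glutamine. Genes such as HisRS are therefore counted as cytosolic by symbol alone, and whether they also serve the mitochondria was not tested.

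The samples were ovaries of Drosophila melanogaster on one-colour arrays: 3 of stwl bam double mutant females, whose alleles the labels do not name, and 3 of females mutant for bam[delta86]. Both genotypes therefore lack normal bam function, which germline stem cell daughters need to differentiate. Their ovaries are taken as a model of germ cells that cannot differentiate and not of a normal ovary. The arrays nonetheless held late egg chamber transcripts, as given below. Stonewall, the protein made from stwl, associates with DNA and is needed to keep germline stem cells. Flies of both genotypes were raised on cornmeal molasses food with dry yeast, and their ages are not stated. The labels do not tie the replicates to separate crosses, so each p-value reflects only the spread among these 6 arrays, part of which may be technical.

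Values are normalized array intensities, and a change is the difference of mean log2 values, stwl bam minus bam, so a positive change is higher in stwl bam. A gene passed when its limma p, adjusted by the Benjamini-Hochberg method over all kept probe sets, was under 0.05. Median deposited intensities per array ran from 26.1 to 39.8, the background of an array lay between 13.5 and 38.8, and all 30 synthetase genes lay above it on all 6 arrays. Signs of RNA quality differed too. For actin, the 5′ control signal divided by the 3′ one gave 0.524 to 0.675 on stwl bam arrays and 0.129 to 0.183 on bam arrays, and the eIF-4a and GAPDH controls differed in the same direction with no overlap. Germ cell markers were measured in both genotypes, with summed intensities of 10984 to 12029 on stwl bam arrays and 11294 to 11887 on bam arrays, and 2 of the 8 were higher, 2 lower. Markers of other cells also moved: 3 of 4 muscle genes and 3 of 5 fat body genes were higher, with summed intensities of 3626 to 5854 in stwl bam against 1267 to 1388 in bam for muscle, and of 2416 to 6308 against 730 to 1365 for fat body. The other 2 fat body genes, Lsp2 at -0.52 and Fbp1 at -0.56 on the log2 scale, went the other way without passing. Of 6 haemocyte genes 3 were lower (sums of 5954 to 8281 in stwl bam, 9722 to 10641 in bam). So was 1 of 6 follicle and ovarian somatic genes (1179 to 1277 in stwl bam, 1765 to 2140 in bam). That gene, eya, made up much of each sum, at 616, 473 and 495 in stwl bam against 1365, 1085.5 and 942 in bam. Beside these counts, 24.1% of all tested genes passed, 11.1% higher and 13.0% lower. None of 5 late egg chamber genes passed. Their sum was 44958 on stwl bam replicate 2 but 7981 and 11588 on the other stwl bam arrays, against 33986 to 40982 in bam. So stwl bam replicate 2 stood apart from its genotype and lay nearer the bam arrays. Vm26Aa was at 81, 13064 and 1516 in stwl bam, against 12025, 10006 and 9351 in bam. Cp36 differed, at 41, 2061.5 and 51 in stwl bam, against 458, 17 and 44 in bam. The source of the late egg chamber signal in bam was not tested. Without stwl bam replicate 2 SerRS, CysRS, ValRS, LeuRS and IleRS, described next, still passed, and HisRS, LeuRS-m and TrpRS-m did not. No marker with a probe set was below background on every array. In whole ovaries fewer cells of a type and less RNA per cell cannot be told apart, and the part of RNA quality and of these other cells in the synthetase values was not tested.

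Most synthetase genes differed little between the genotypes. SerRS rose, HisRS rose by less, and 6 genes fell: CysRS, ValRS, LeuRS and IleRS of the cytosolic form and LeuRS-m and TrpRS-m of the mitochondrial form. The other 22 of the 30 did not pass. The 8 that passed were 26.7% of the synthetase genes, where 24.1% of all tested genes passed (11.1% higher and 13.0% lower). How close the shares are depends on the setting. With arrays rescaled to 1 trimmed mean the same numbers of synthetase genes passed, against 1007 higher and 1117 lower of all genes. With each array centred on the median of all its probe sets, 0 of 30 passed, against 334 higher and 572 lower of all genes. Without the intensity trend 1 was higher and 1 lower, against 662 higher and 788 lower of all genes. The changes were small in size: the median absolute change was 0.16 on the log2 scale for the synthetase genes and 0.30 for all tested genes, and 28 of the 30 stayed under 0.5 in either direction. The median change was -0.12 over the synthetase genes and -0.04 over all genes tested, and the median over all genes ran from -0.12 with median centring to 0.05 with intensities as deposited. All stwl bam arrays lay on one side of all bam arrays for 11 of the 30, 2 of them higher and 9 lower, or 36.7%. Over all tested genes that share was 42.7%, with 19.6% higher and 23.1% lower.

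**Figure D1:**
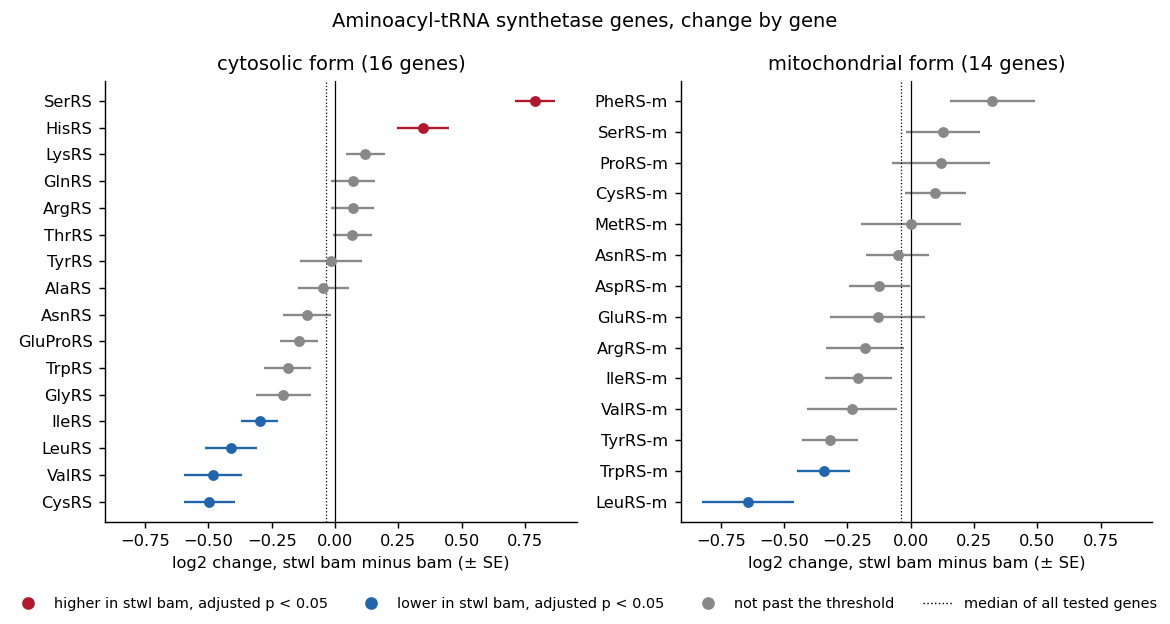
Change of each measured synthetase gene on the log2 scale, stwl bam minus bam, with its standard error from limma, for the 16 cytosolic genes (left) and the 14 mitochondrial genes (right). SerRS at 0.79 and LeuRS-m at -0.64 stand at the ends, and 28 of the 30 lie within 0.5 of 0.

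SerRS, the cytosolic enzyme that charges serine transfer RNA, showed the largest change of the 30. Its normalized intensity was 1423.5, 1562 and 1423.5 on the 3 stwl bam arrays, against 855.5, 858 and 823.5 on the 3 bam arrays. Every stwl bam array lay far above every bam array, and the spread within a genotype was small beside the gap. SerRS was 1.73-fold higher, or 0.79 ± 0.08 on the log2 scale (SE, limma adjusted p = 0.000505). It kept its call without any single array, with changes from 0.74 to 0.81.

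HisRS, which charges histidine transfer RNA, was at 1201, 1061.5 and 1069 on the stwl bam arrays, against 857, 973 and 791 on the bam arrays. The arrays did not overlap, but bam replicate 2 came close to the lower stwl bam arrays. The change was 0.35 ± 0.10 (SE), 1.27-fold, with a limma adjusted p of 0.0414. Its call ended without any single array except bam replicate 2.

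CysRS, the cysteine enzyme of the cytosol, was at 525, 540.0 and 452 in stwl bam, against 696.5, 708 and 739 in bam. All stwl bam arrays were below all bam arrays, and the drop was 0.50 ± 0.10 (SE) on the log2 scale, with a limma adjusted p of 0.0101. With SerRS it was the only one of the 8 that passed without each single array in turn.

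The cytosolic synthetases for the branched-chain amino acids valine, leucine and isoleucine all fell. They were 3 of the 4 cytosolic genes that fell. As shares of the genes tested, 4 of the 16 cytosolic genes and 13.0% of all genes were lower. The grouping was not among the planned comparisons and is a description without a test. ValRS was at 521, 545 and 492.5 in stwl bam, against 803, 763 and 631 in bam, a difference of -0.48 ± 0.11 on the log2 scale (SE, limma adjusted p = 0.0178). LeuRS was at 604, 588 and 558 in stwl bam, against 816, 834 and 692 in bam, a difference of -0.41 ± 0.10 on the log2 scale (limma adjusted p = 0.0220). For both genes bam replicate 3 was the lowest bam array and still lay above every stwl bam array. IleRS was at 1610.2, 1545 and 1517 in stwl bam, against 1914, 1833 and 2005 in bam, a difference of -0.30 ± 0.07 on the log2 scale (limma adjusted p = 0.0199). The calls of ValRS and LeuRS were lost when stwl bam replicate 3, bam 1 or bam 2 was left out, and that of IleRS when stwl bam replicate 3, bam 1 or bam 3 was. The probe sets of ValRS and IleRS carry the maker's suffix for probes shared between transcripts, although the annotation gives each a single gene.

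Of the mitochondrial genes, LeuRS-m was at 118.5, 149 and 178 in stwl bam, against 216, 214.5 and 274 in bam. The arrays did not overlap, yet the stwl bam arrays spread widely, and the change was -0.64 ± 0.18 (SE) with a limma adjusted p of 0.0353. TrpRS-m, the mitochondrial tryptophan enzyme, was at 279, 296 and 299 in stwl bam, against 367.5, 385 and 362 in bam. Its change was -0.34 ± 0.10, with a limma adjusted p of 0.0448, just inside the threshold. Leaving out any single array ended the call of TrpRS-m, and any except stwl bam replicate 3 ended that of LeuRS-m.

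**Figure D2:**
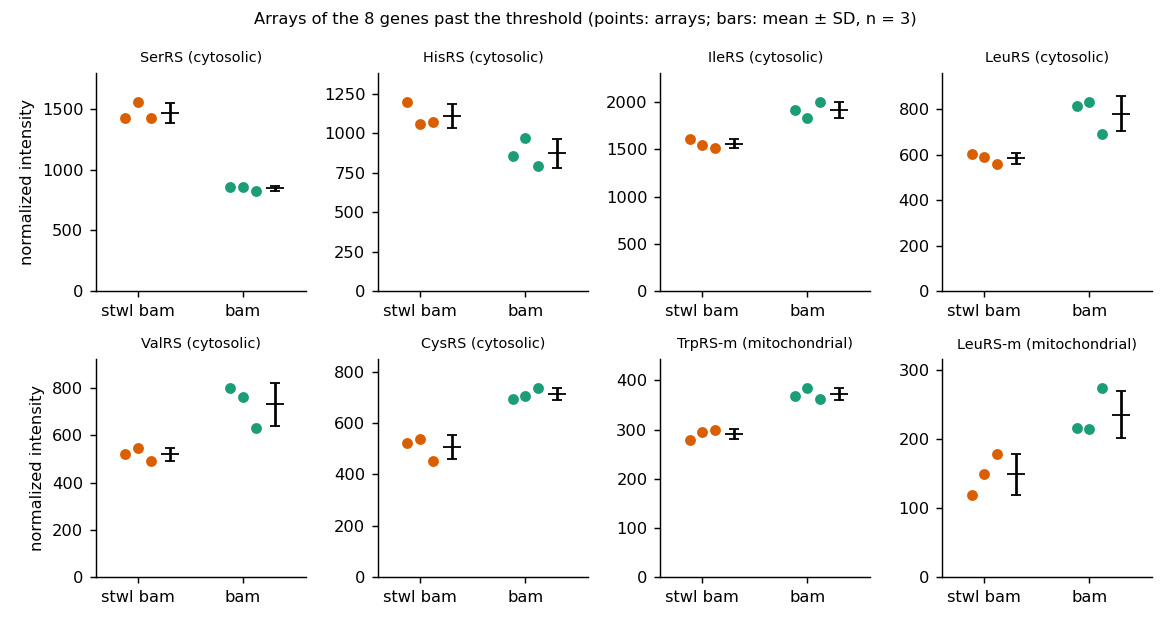
Normalized intensity of the 8 synthetase genes that passed, on each of the 3 stwl bam and 3 bam arrays (points), with mean ± SD beside them. Only SerRS and HisRS lie higher in stwl bam, and CysRS, ValRS, LeuRS, IleRS, TrpRS-m and LeuRS-m lie lower.

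Among the cytosolic genes that did not pass, GlyRS stood at -0.20 ± 0.11 (SE), TrpRS at -0.19 ± 0.09 and GluProRS at -0.14 ± 0.08, with limma adjusted p of 0.208, 0.190 and 0.209. GlyRS was at 943, 908.5 and 863 in stwl bam, against 1059.5, 1177 and 910 in bam, so the arrays overlapped. GluProRS, which in a single protein charges both glutamate and proline transfer RNA, was at 1730, 1676 and 1623 in stwl bam, against 1930, 1898.5 and 1732 in bam, and the highest stwl bam array lay just under the lowest bam array. TrpRS has 3 probe sets, and they disagree in sign. The one with the highest mean, used in the counts here, was at 751, 877 and 888.5 in stwl bam, against 942, 992 and 928.5 in bam. The next was at 318, 425.5 and 416 in stwl bam, against 324, 342 and 357 in bam, a difference of 0.17 on the log2 scale (limma adjusted p = 0.417), and the third stood at 0.03. With the mean over its probe sets TrpRS stood at 0.00.

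The remaining cytosolic changes were smaller still. LysRS stood at 0.12, with 1799.5, 1916 and 1732 in stwl bam, against 1606, 1776 and 1631.5 in bam. GlnRS, ArgRS and ThrRS each stood at 0.07, TyrRS at -0.01, AlaRS at -0.05 and AsnRS at -0.11, and their limma adjusted p lay between 0.442 and 0.945. ArgRS was at 888, 930.5 and 906 in stwl bam, against 851, 823.5 and 923 in bam.

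Of the mitochondrial genes that did not pass, TyrRS-m came nearest to the threshold. It was at 287, 322 and 295 in stwl bam, against 405, 367 and 362 in bam, with no overlap, a change of -0.32 ± 0.11 (SE) and a limma adjusted p of 0.0689. PheRS-m, the mitochondrial phenylalanine enzyme, stood at 0.32 ± 0.17, with 484, 536 and 593 in stwl bam, against 394.5, 555.0 and 356 in bam. Its bam replicate 2 lay inside the stwl bam range, and without that array the change was 0.51 and passed, with a limma adjusted p of 0.0421. ValRS-m stood at -0.23 ± 0.18, with 101, 132 and 138 in stwl bam, against 165, 145 and 128 in bam, which overlap.

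The other 9 mitochondrial genes ran from -0.21 for IleRS-m to 0.13 for SerRS-m, with ArgRS-m at -0.18, GluRS-m at -0.13, AspRS-m at -0.12, AsnRS-m at -0.05, MetRS-m at 0.00, CysRS-m at 0.10 and ProRS-m at 0.12. All of them overlapped between the genotypes. MetRS-m was at 79, 110 and 110 in stwl bam, against 85, 98 and 113 in bam. Array intensities depend on the probes, so levels of different genes are not set against each other here.

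Cytosolic and mitochondrial forms were then set side by side. Of the 16 cytosolic genes 2 rose and 4 fell, 37.5% in all, and of the 14 mitochondrial genes 0 rose and 2 fell, 14.3% in all. Among all tested genes the share was 24.1%, with 11.1% higher and 13.0% lower. The medians were -0.08 for the cytosolic and -0.13 for the mitochondrial genes, against -0.04 for all tested genes. Replicates of a genotype spread more for the mitochondrial genes: the median SD over 3 arrays was 0.17 in stwl bam and 0.14 in bam on the log2 scale, beside 0.07 and 0.08 for the cytosolic genes. Counts of passing genes in the forms therefore do not rest on equal precision, and whether the forms differ as groups was not tested.

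Single arrays also weighed on the forms, through different arrays in stwl bam and through the same array in bam. Among stwl bam arrays, replicate 1 was the lowest for 10 of the 14 mitochondrial genes, with a median deviation of -0.11 from the stwl bam mean, while replicate 3 was the lowest for 10 of the 16 cytosolic genes, at -0.05. Among bam arrays, replicate 3 was the lowest for 9 of the 14 mitochondrial and 9 of the 16 cytosolic genes. For all tested genes the corresponding median deviations of these arrays lay between -0.02 and 0.01. Of the 8764 tested genes, stwl bam replicates 1 and 3 were the lowest of their genotype for 3504 and 2442, and bam replicate 3 for 2805.

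For 11 pairs, both a cytosolic and a mitochondrial gene for the same amino acid were measured, with GluProRS paired with both GluRS-m and ProRS-m. The cytosolic change minus the mitochondrial change was computed from the log2 difference between the genes of a pair on each array. Serine and cysteine showed the widest gaps, in opposite directions. The gap was 0.66 ± 0.17 (SE) for SerRS over SerRS-m, whose own change was 0.13, and -0.59 ± 0.15 for CysRS over CysRS-m, whose own change was 0.10. No stwl bam array overlapped a bam array for these pairs, nor for TyrRS over TyrRS-m at 0.30 ± 0.10 and TrpRS over TrpRS-m at 0.16 ± 0.05. Each of these 4 had an exact permutation p of 0.1, two-sided, the smallest that 3 arrays against 3 allow, so no pair could pass 0.05. Arrays were thus apart in 4 of 11 pairs, where 42.7% of all single tested genes had arrays apart. The like share for differences between other gene pairs was not computed. The TrpRS gap rests on the 1 of its 3 probe sets with the highest mean. It was 0.35 with the mean over its probe sets, which includes the 1 near background.

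Leucine was the only amino acid whose genes passed in both forms, and both fell, LeuRS by 0.41 and LeuRS-m by 0.64, with a gap of 0.23 ± 0.28 (SE) and overlapping arrays. That gap was 0.07 without stwl bam replicate 1, 0.41 without stwl bam replicate 3 and 0.02 without bam replicate 3. For isoleucine and valine the cytosolic genes passed, while IleRS-m and ValRS-m stood at -0.21 and -0.23 without passing, and the gaps of -0.09 ± 0.15 and -0.25 ± 0.15 overlapped between the genotypes. The exact permutation p over arrays was 0.4 for leucine, 0.7 for isoleucine and 0.3 for valine. The gaps were -0.06 for asparagine, -0.01 for glutamate, -0.26 for proline and 0.25 for arginine, with overlapping arrays in each. Both genes of a pair had the same sign in 8 of the 11 pairs.

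**Figure D3:**
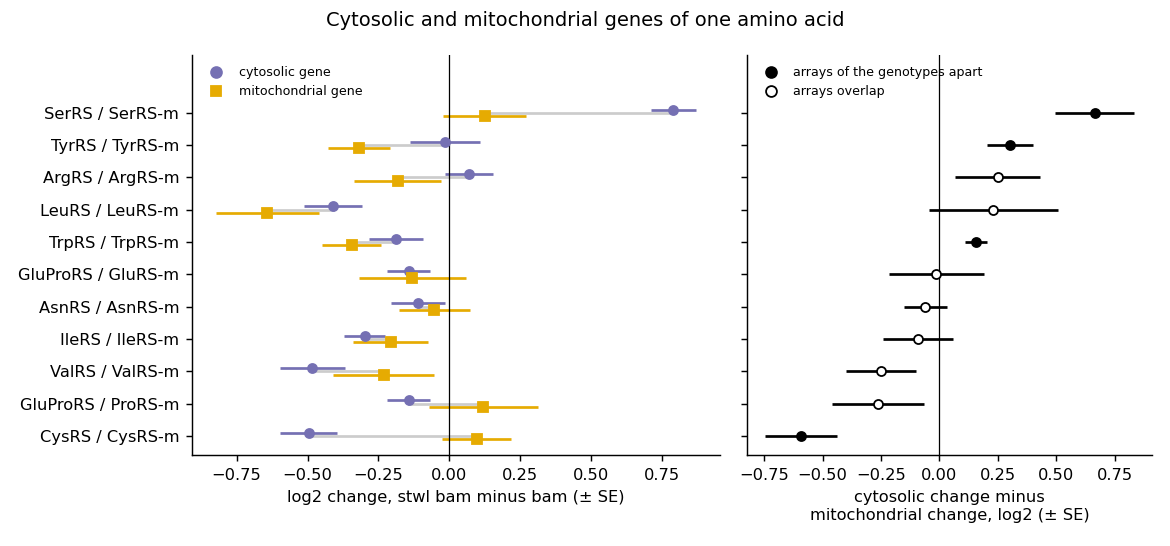
Left, log2 change with SE of the cytosolic (circles) and mitochondrial (squares) gene of each of 11 pairs; right, the cytosolic change minus the mitochondrial change with its SE, filled where the arrays of the genotypes do not overlap. SerRS over SerRS-m at 0.66 and CysRS over CysRS-m at -0.59 are the widest gaps.

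Synthetases fall into 2 structural classes with unrelated catalytic domains, class I with a Rossmann fold and class II with an antiparallel beta-sheet. The classes of the enzymes were assigned from textbook knowledge after the values had been seen, so the split is a description without a test. Of 17 class I genes 6 were lower and 0 higher, 35.3% in all, and their median change was -0.21. Of 12 class II genes 2 were higher, SerRS and HisRS, and 0 were lower, 16.7% in all, and their median change was 0.09. Over all tested genes 24.1% passed, 11.1% higher and 13.0% lower, and 4 of the 17 class I genes had a positive and 5 of the 12 class II genes a negative change. In the cytosolic form 4 of 8 class I genes were lower and 2 of 7 class II genes were higher, and in the mitochondrial form 2 of 9 class I genes were lower and 0 of 5 class II genes passed. GluProRS holds an enzyme of each class and was left out of the split.

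**Figure D4:**
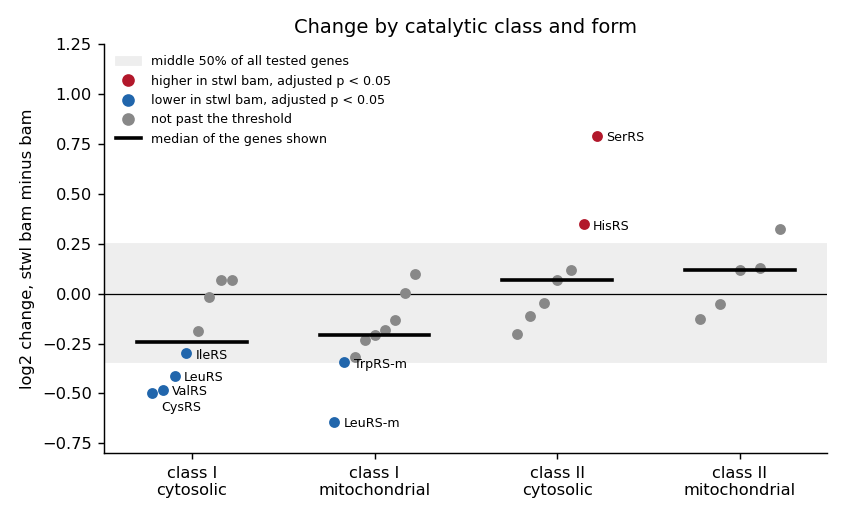
Log2 change, stwl bam minus bam, of class I and class II synthetase genes by form, with a bar at the median of each group and a grey band over the middle quartiles of all tested genes, from -0.34 to 0.25. Among the 8 genes that passed, the 6 lower ones are of class I and the 2 higher ones of class II, while the genes that did not pass lie on both sides of 0 in each class.

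In human cells some cytosolic synthetases join a multi-enzyme complex held together by the scaffold proteins AIMP1, AIMP2 and AIMP3. The Drosophila genes of the enzymes found in the human complex numbered 6 measured here, of which IleRS and LeuRS were lower and ArgRS, GlnRS, GluProRS and LysRS did not pass. Of the 10 other cytosolic genes 2 were higher and 2 lower. Over all tested genes 24.1% passed, 11.1% higher and 13.0% lower. Of the scaffold genes, AIMP1 and AIMP2 rose. AIMP1 was at 1252, 1333 and 1367 in stwl bam, against 899, 956 and 952 in bam, a difference of 0.49 ± 0.08 on the log2 scale (SE, limma adjusted p = 0.00406). AIMP2 was at 1369, 1653 and 1452 in stwl bam, against 928, 1115.5 and 995 in bam, a difference of 0.55 ± 0.10 on the log2 scale (limma adjusted p = 0.00726). The genotypes did not overlap for either, and neither call was lost without any single array. AIMP3 was at 749, 769 and 649 in stwl bam, against 483, 601 and 614 in bam, a difference of 0.35 on the log2 scale (limma adjusted p = 0.0714), which did not pass.

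Some synthetase genes lie outside the naming rule. The cytosolic phenylalanine enzyme is made of the subunits alpha-PheRS and beta-PheRS, which stood at 0.08 and 0.20 with limma adjusted p of 0.675 and 0.241. Slimp, a seryl-tRNA synthetase paralogue of Drosophila mitochondria, was at 138, 204.5 and 213 in stwl bam, against 216, 232 and 274 in bam, a change of -0.38 ± 0.19 (SE) that did not pass (limma adjusted p = 0.180).

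Genes acting next to the synthetases were taken as lists, whose counts stand beside the 24.1% of all tested genes that passed, 11.1% higher and 13.0% lower. Of 10 mitochondrial translation factor and amidotransferase genes tested, 1 rose: mEFG1, a mitochondrial elongation factor, by 0.50 ± 0.13 (SE). The median of these 10 was 0.11, and mEFTu1, whose product carries charged transfer RNA to the mitochondrial ribosome, stood at 0.03, and mEFTs, whose product recycles that factor, at 0.09. Of 6 cytosolic elongation and release factor genes 1 rose and 2 fell: eEF1gamma by 0.34 ± 0.07, and eEF1alpha2 and the release factor gene eRF3 at -0.65 ± 0.20 and -0.51 ± 0.07. The call of mEFG1 was lost when stwl bam replicate 2, bam 1 or bam 3 was left out, that of eEF1gamma without bam replicate 1, and that of eEF1alpha2 without any array except stwl bam replicate 3.

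Of 13 tRNA processing and modification genes 4 rose and 1 fell, 38.5% in all beside 24.1% of all tested genes, with a median of 0.25. Nsun2, a cytosine methyltransferase for transfer RNA, was at 288, 294.5 and 277 in stwl bam, against 149, 92 and 167 in bam, a difference of 1.07 ± 0.21 on the log2 scale (SE, limma adjusted p = 0.00842). RtcB, the ligase that joins the exons of spliced transfer RNA, rose by 0.60 ± 0.11. Tgt, which exchanges guanine for queuine, rose by 0.55 ± 0.14, while the pseudouridine synthase gene Pus7 changed by -0.78 ± 0.21. The other gene that rose was wuho, which encodes a subunit of a guanine methyltransferase. Leaving out bam replicate 1 or 2 ended the call of Pus7, and any array except stwl bam replicate 1 that of Tgt.

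Of 14 genes of amino acid sensing and the ATF4 branch 0 rose and 4 fell, 28.6% in all, with a median of -0.22. Beside this, 24.1% of all tested genes passed in either direction, and 13.0% were lower. Synthetase genes are known targets of ATF4 in animals, and crc encodes Drosophila ATF4. crc was at 3144, 2917 and 3144 in stwl bam, against 3506, 3648 and 3522 in bam, a difference of -0.21 ± 0.06 on the log2 scale (SE, limma adjusted p = 0.0429). AsnS, which encodes asparagine synthetase, stood at -0.50 ± 0.15 with a limma adjusted p of 0.0496. With intensities as deposited crc stood at -0.097 (limma adjusted p = 0.664) and AsnS at -0.37 (limma adjusted p = 0.170), so neither passed. Leaving out any single array except stwl bam replicate 1 ended the call of crc, and any except stwl bam replicate 2 that of AsnS. mTor, the growth kinase, changed by -0.57 ± 0.11, and gig, which encodes its inhibitor Tsc2, by -0.66 ± 0.10, and neither call was lost without a single array. Of 6 genes of mitochondrial DNA maintenance and transcription 1 rose, TFAM by 0.36 ± 0.10, and 2 fell, the mitochondrial RNA polymerase gene PolrMT at -0.70 ± 0.13 and the DNA polymerase gene PolG1 at -0.50 ± 0.13. PolrMT kept its call without each array in turn. TFAM and PolG1 each lost theirs without any of 4 arrays, which for both included stwl bam replicates 2 and 3 and bam replicate 3, with bam replicate 2 for TFAM and bam replicate 1 for PolG1.

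The calls of the 8 synthetase genes were followed through 22 processing settings. SerRS passed in 21 of 22 and CysRS in 20, and all 8 genes kept their sign in each. HisRS passed in 9, and LeuRS-m and TrpRS-m in 10 each.

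**Figure D5:**
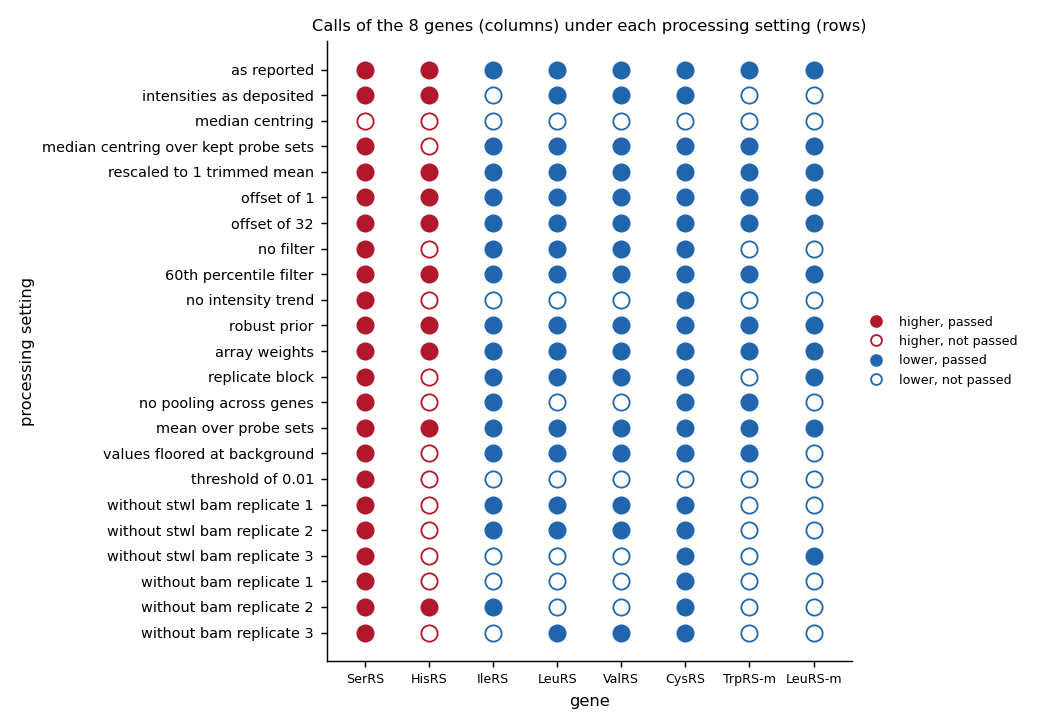
Calls of the 8 synthetase genes (columns) as reported and under 22 other settings (rows), red for higher and blue for lower in stwl bam, filled where the gene passed. The columns of SerRS and CysRS are filled almost throughout, and centring on the median of all probe sets leaves none filled.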

How the data were processed

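Each array file deposited by the authors holds a linear intensity for every probe set, from GCOS per the submitters' processing notes, with no version or settings stated. The trimmed mean was 220.5 on bam replicate 1 and 250.0 on the others, so the intensities were quantile-normalized without the 183 control sets. Log2 was taken of the deposited intensities after normalization and an offset of 7.9 (their 25th percentile), which understates the folds of dim genes. Kept probe sets reached the 40th percentile of an array on 3 or more of 6. The annotation gives 1 gene for 13647 of 18952 probe sets, several for 402 and none for 4720, and 13544 took their current symbol through gene numbers from a RefSeq table of the Release 6 assembly. A gene is its kept probe set with the highest mean. Background is the 95th percentile of 44 control sets for sequences that flies lack. The test was limma 3.58.1 (R 4.3.3), using lmFit and eBayes with an intensity trend. In simulated arrays with 8764 genes, 200 of them changed, 17.9% of the changes of 0.5 (log2) were recovered, 52.2% of those of 1 and 90.9% of those of 2. Of the simulated calls 6.1% were false. A far larger share of genes, 24.1%, passed in the real arrays, so the simulation does not give the recovery there. With 3 arrays in each genotype, precision is limited by their number. Genes and lists were chosen with earlier results of these data known. Array values are given for synthetase genes that passed, for the 3 largest other changes of each form, for those with the highest and lowest mean and for those whose probe sets disagree, and from each list up to 4 passing genes are named. wuho, mEFTu1, mEFTs, LysRS, ArgRS, AIMP3, alpha-PheRS, beta-PheRS and Slimp are further genes named after their values were seen. Of 22 alternatives, 1 was chosen after seeing the data.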

Additional observations from a re-analysis of the deposited data

How the results depend on the processing

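With 22 alternatives, signs of the 8 passing synthetase genes held, but counts moved. Cytosolic genes higher and lower, as reported 2 and 4, were 0 and 0 with median centring over all probe sets, 1 and 1 without the intensity trend, 1 and 2 without pooling across genes and 1 and 0 at a threshold of 0.01. With no filter, values floored at background, the replicate block, or median centring over kept probe sets (chosen after seeing the data), 1 was higher. Mitochondrial genes lower, as reported 2, were 0 with intensities as deposited, median centring, no filter, no intensity trend or a threshold of 0.01, and 1 with the replicate block, no pooling or the background floor. Deviations of same-numbered arrays of the genotypes had correlations of -0.05, -0.03 and 0.00, and those of differently numbered arrays ran from -0.06 to 0.10. All are close to 0, so this check cannot tell whether the numbers pair samples. The replicate block ended the calls of HisRS and TrpRS-m among the synthetase genes. Leaving out single arrays gave 1 to 2 cytosolic genes higher, 1 to 4 lower, and 0 to 1 mitochondrial genes higher and 0 to 1 lower. The fewest cytosolic genes lower, 1, came without bam replicate 1 or stwl bam replicate 3, and 2 came without bam replicate 2. The cytosolic median, -0.08 as reported, was -0.21 with median centring and -0.031 with the mean over probe sets, and -0.14 to -0.042 without single arrays. The mitochondrial median, -0.13 as reported, was -0.033 as deposited, -0.20 with median centring and -0.14 to -0.087 without single arrays. The class I median stayed between -0.33 and -0.11, and the class II median between -0.02 and 0.15. TyrRS-m passed with the 60th percentile filter, array weights or centring over kept probe sets.

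Genes near 0 that did not pass changed sign. With intensities as deposited TyrRS was at 0.012, AsnRS-m at 0.025 and GluRS-m at 0.022. With median centring alpha-PheRS was at -0.057, ArgRS at -0.0746, GlnRS at -0.0747, ThrRS at -0.053 and CysRS-m at -0.031, and with the mean over probe sets TrpRS was at 0.0031. Without single arrays TyrRS ran from -0.15 to 0.081, MetRS-m ran from -0.0897 to 0.15, GluRS-m ran from -0.25 to 0.043, AlaRS ran from -0.11 to 0.029 and alpha-PheRS ran from -0.0033 to 0.15. The gaps of the serine, cysteine, tyrosine and tryptophan pairs kept their sign in all 22, and other gaps ran from 0.13 to 0.36 for arginine, -0.38 to -0.13 for valine and -0.46 to -0.15 for proline. Asparagine, glutamate and isoleucine gaps changed sign in 1, 3 and 1. Of the passing list genes with array values or changes given, median centring ended all calls except those of Nsun2, Pus7, gig and PolrMT, and intensities as deposited ended those of crc, AsnS, eEF1alpha2 and PolG1. Rescaling to 1 trimmed mean put crc at -0.15 (limma adjusted p = 0.251). Genes higher and lower over the whole array, 974 and 1142 as reported, were 454 and 473 without pooling, 415 and 445 at the 0.01 threshold, and 518 to 988 and 553 to 1219 without single arrays. For these sign and count changes the cause was not tested.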
